A study of Homo sapiens with 12 samples.

Results

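CAL27 and HSC3 are established HPV-negative cell lines of head and neck squamous cell carcinoma (HNSCC). In both lines as used here, a tetracycline-inducible vector carries an shRNA against MUC1, so that doxycycline (DOX) in the medium silences MUC1 and its MUC1-C subunit. Cells received 0.1% DMSO as vehicle or 500 ng/ml DOX for 7 days, and RNA from triplicate cultures was sequenced, which gives 3 libraries in each of 4 groups and 12 in all. Vehicle-treated cells carry the same vector. DOX-treated cells with a control shRNA were not analysed here, so effects of MUC1-C silencing, of DOX and of the induction of an shRNA cannot be told apart in these libraries.

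The genes described are 10 heat shock proteins and co-chaperones among the 39368 symbols of the count tables: HSPB1, HSPB8, CRYAB, BAG3, HSPA1A, HSPA1B, HSPA8, DNAJB1, HSPH1 and HSP90AA1. They were taken by symbol and all 10 were found in both tables. The set was chosen by the measured log2 fold change of HSPB8 with DOX in HSC3 cells, the largest increase among abundant genes there, and the other 9 were set beside it. The HSC3 values of these genes, their differences from CAL27 that use them, and the HSPB8 level of vehicle-treated HSC3 cells are therefore given as descriptions without a p-value, whereas the CAL27 response was not used in the choice and is tested.

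Molecular chaperones bind unfolded proteins and keep them from aggregating. Small heat shock proteins such as HSPB1, HSPB8 and CRYAB (αB-crystallin) hold misfolded clients without using ATP. HSPA8, the constitutive HSP70, and its stress-inducible relatives HSPA1A and HSPA1B then refold these clients in cycles of ATP hydrolysis, in which the J-domain protein DNAJB1 stimulates the ATPase and HSPH1 (HSP110) and BAG3 act as nucleotide exchange factors. BAG3 also binds HSPB8, and the pair, with HSP70 and the ubiquitin ligase STUB1, directs misfolded proteins to selective autophagy. HSP90AA1, the inducible cytosolic HSP90, completes the folding of kinases, receptors and other clients. In the heat shock response many of these genes are driven by HSF1, which binds inverted repeats of the pentamer nGAAn in promoters.

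Promoters are shown because they let the genes be compared at the element that many of them share. RefSeq promoter windows of GRCh38.p14, running from 250 bases before to 50 bases after a start site, were found for 9 of the 10 genes (12 windows). They were searched for the paired units GAANNTTC and TTCNNGAA, each of which is its own reverse complement, and for 3 units in a row, that is GAANNTTC followed by NNGAA or TTCNNGAA followed by NNTTC, which are the reverse complements of each other and contain the pairs. At least 1 pair was present in 8 of the 12 windows, from 7 genes, and in 13.5% of all 35116 promoter windows. The run of 3 units was present in 2 of the 12 windows, those of HSPA8 and HSP90AA1, and in 0.49% of all windows. The windows of BAG3 and HSPH1 held no match, which says only that these letters are not in these windows. Positions are counted from the start site at 0, and matches are in capitals. Stretches of 90 bases around matches of 5 genes, not every match, are printed 5′ to 3′ on the strand of the gene. They are HSPB8 at chr12:119178811-119178900 (plus strand), HSPA1A at chr6:31815403-31815492 (plus strand), HSPB1 at chr7:76302473-76302562 (plus strand), HSP90AA1 at chr14:102087075-102087164 (minus strand) and DNAJB1 at chr19:14518413-14518502 (minus strand).
HSPB8: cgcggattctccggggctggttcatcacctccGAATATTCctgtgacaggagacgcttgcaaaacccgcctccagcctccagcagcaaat
HSPA1A: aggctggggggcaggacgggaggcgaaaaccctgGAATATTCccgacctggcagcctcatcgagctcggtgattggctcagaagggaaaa
HSPB1: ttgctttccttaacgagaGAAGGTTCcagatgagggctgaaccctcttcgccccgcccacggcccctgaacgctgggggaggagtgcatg
HSP90AA1: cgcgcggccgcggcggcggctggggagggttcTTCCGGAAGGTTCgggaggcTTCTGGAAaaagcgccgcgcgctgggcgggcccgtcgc
DNAJB1: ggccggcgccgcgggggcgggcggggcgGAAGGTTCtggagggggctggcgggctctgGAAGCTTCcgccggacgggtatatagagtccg
The HSPB8 window held 2 matches. GAATATTC, at position -88, has the same 8 letters as the matches of HSPA1A, at -106, and of HSPA1B. The other, GAAGTTTC at position 4, has different letters and lies outside the printed stretch. No binding was measured in these libraries, so the matches describe the sequence only.

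Library totals ran from 89730914 to 169065103 counts and were highest in the HSC3 DOX libraries. Several counts can come from 1 molecule. The number per molecule was estimated at 2.45 to 3.33 in CAL27. In HSC3 it was 4.18 to 7.43 with vehicle and 8.93 to 17.2 with DOX. By this estimate HSC3 with DOX was the least deeply sampled in molecules despite its totals. The estimate rests on genes without counts in a library that the other libraries of its group detect, so differences between replicates also raise it. HSC3 DOX replicate 1 had the highest estimate and the fewest genes detected (19128), and values that moved by over 1.5 times without it are also given without it. Levels are CPM, counts scaled to library size with 1 set of TMM factors for all 12 libraries, and comparisons between genes use CPM per kilobase of transcript. MUC1 was lower with DOX in both lines, from 58.4, 53.1 and 54.3 CPM to 2.92, 2.76 and 3.25 CPM in CAL27 (log2 fold change -4.21 with a standard error (SE) of 0.067, edgeR adjusted p = 1.6e-19) and from 1.66, 1.97 and 1.64 CPM to 0.310, 0.267 and 0.132 CPM in HSC3 (log2 fold change -2.88, SE 0.38, edgeR adjusted p = 2.0e-04). All 8 squamous epithelial markers examined exceeded 1 CPM in every group. Their summed level was 6302 to 6575 CPM under vehicle and 2970 to 3183 CPM after DOX in CAL27, and 5885 to 6593 CPM and 2688 to 3124 CPM in HSC3, and the part of this decrease in the results that follow was not tested. HSPB8 and CRYAB are abundant in striated muscle, and the muscle markers DES, MYH7 and MYOG had no counts in any group, with all 5 muscle markers summing to 0.402 to 1.22 CPM. In bulk RNA, fewer cells of a type and less RNA per cell cannot be told apart.

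HSPB8 was higher with DOX in both lines and stood further from the other chaperones in HSC3. It is a gene of the plus strand of chromosome 12, between 119171555 and 119224855 of GRCh38 as annotated by GENCODE v44, the source of all gene positions given. In CAL27 cells it measured 14.9, 13.2 and 15.2 CPM with vehicle and 30.6, 27.8 and 28.6 CPM with DOX. All DOX libraries lay above all vehicle libraries, and the level doubled to a fold change of 2.00 (log2 fold change 1.00, SE 0.061, edgeR adjusted p = 5.3e-11). The log2 fold change ran from 0.93 to 1.03 when each library was left out in turn, so it sat at the threshold of FC>2. In HSC3 cells HSPB8 measured 2.45, 3.07 and 2.35 CPM with vehicle and 23.0, 20.1 and 21.7 CPM with DOX, from 252 to 282 counts and from 2619 to 3407 counts. The groups did not overlap, and the log2 fold change was 3.04 (SE 0.14), a fold change of 8.25. Across 13 alternatives it stayed between 2.97 and 3.16, the fits without HSC3 DOX replicate 1 and on counts divided by the estimated counts per molecule included.

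**Figure D1:**
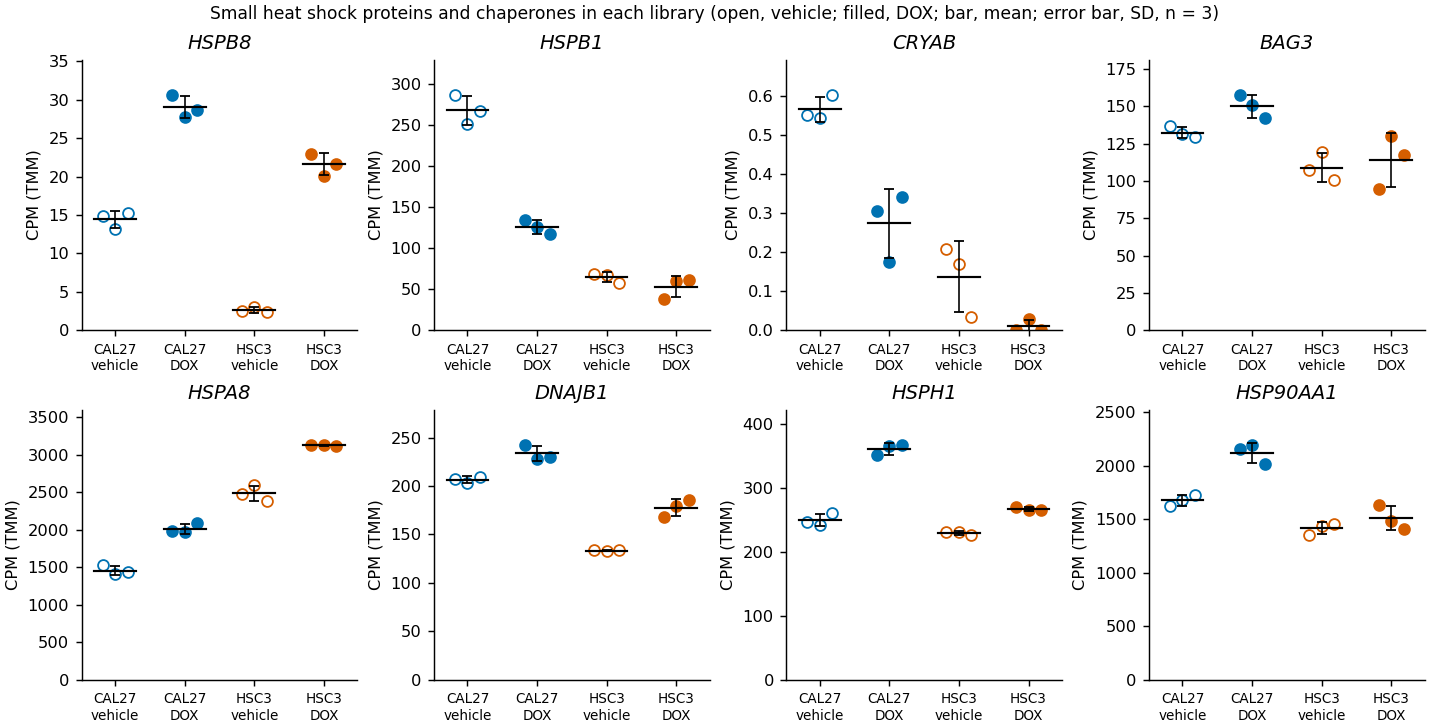
Level of 8 of the 10 genes in every library, in CPM (y axis), with HSPA1A and HSPA1B, at or near 0, left out. Open points are vehicle libraries, filled points DOX libraries, lines the mean and error bars the SD (n = 3). HSPB8 with DOX lies between 20.1 and 30.6 CPM in both lines, from vehicle levels of 13.2 to 15.2 CPM in CAL27 and 2.35 to 3.07 CPM in HSC3.

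The vehicle levels of HSPB8 differed more between the lines than the DOX levels did. With vehicle, HSC3 was lower than CAL27 by a log2 fold change of -2.47 ± 0.11 (SE). With DOX, the mean was 29.0 ± 1.42 CPM (SD, n = 3) in CAL27 and 21.6 ± 1.42 CPM (SD, n = 3) in HSC3. The DOX effect was larger in HSC3 by 2.05 on the log2 scale (SE 0.14). Among the 9258 genes whose log2 CPM averaged 3 or more, HSPB8 had the largest log2 fold change in HSC3, which is how it was chosen, and the next was LCP1 at 2.40. In CAL27 cells it was number 63 of the same 9258 genes. Among all genes tested it was number 36 of 18021 in HSC3 and number 320 of 19239 in CAL27.

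HSPB1 (HSP27), the most abundant small heat shock protein here, moved opposite to HSPB8 in CAL27. It lies on chromosome 7 from 76302673 to 76304295, on the plus strand. CAL27 levels were 287, 252 and 268 CPM with vehicle and 135, 126 and 117 CPM with DOX. The groups were well apart, and HSPB1 was downregulated with a log2 fold change of -1.10 ± 0.051 (SE; edgeR adjusted p = 8.5e-12). In HSC3 cells the levels were 69.0, 67.4 and 57.8 CPM with vehicle and 38.4, 60.0 and 61.2 CPM with DOX. Only DOX replicate 1 lay below all vehicle libraries, the groups overlapped, and the log2 fold change of -0.29 ± 0.16 (SE) was -0.094 without that replicate. The DOX effect on HSPB1 was 0.81 higher in HSC3 than in CAL27 (log2, SE 0.19), from -1.10 to -0.29. Vehicle-treated HSC3 cells had less HSPB1 than vehicle-treated CAL27 cells (log2 fold change -2.05, SE 0.14, edgeR adjusted p = 2.4e-09). HSPB1 has 2 pseudogenes in the tables, with at most 2.24% of its counts.

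CRYAB, a small heat shock protein of lens and muscle, was near the limit of detection. It lies on chromosome 11 from 111908564 to 111923722, on the minus strand, and 13.6% of its exon bases overlap HSPB2 and HSPB2-C11orf52 on the opposite strand. The counting's use of strand is not given in the sources used here, so reads from such neighbours cannot be separated. In CAL27, vehicle libraries held 76, 59 and 73 counts and DOX libraries 32, 18 and 44, and CRYAB fell by 1.04 on the log2 scale (SE 0.30, edgeR adjusted p = 0.0081). The call did not hold in 1 fit over all 12 libraries (edgeR adjusted p = 0.40). HSC3 vehicle libraries held 24, 14 and 4 counts and DOX libraries 0, 4 and 0, too few for the filter, and no fold change is given.

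BAG3, the partner of HSPB8, lies on chromosome 10 from 119651380 to 119677819, on the plus strand. CAL27 levels were 137, 131 and 129 CPM with vehicle and 157, 151 and 142 CPM with DOX. The groups did not overlap, and BAG3 rose by 0.18 on the log2 scale (SE 0.041, edgeR adjusted p = 0.0013), which did not hold in 1 fit over all 12 libraries (edgeR adjusted p = 0.20). HSC3 levels were 108, 119 and 100.4 CPM with vehicle and 94.4, 130.3 and 117 CPM with DOX. The DOX range enclosed the vehicle range, and the log2 fold change of 0.062 (SE 0.11) had no stable direction, at 0.19 without DOX replicate 1 and -0.049 without DOX replicate 2. The ratio of HSPB8 to BAG3 per kilobase was 0.150 ± 0.0119 under vehicle and 0.266 ± 0.0121 after DOX in CAL27 (SD, n = 3; exact permutation test, two-sided p = 0.1, the smallest that 20 splits allow). In HSC3 it was 0.0330 ± 0.00216 with vehicle and 0.267 ± 0.0621 with DOX (SD, n = 3). The ratio of HSPB8 to HSPB1 went from 0.0225 ± 0.00113 to 0.0964 ± 0.00507 in CAL27 (SD, n = 3; exact permutation test, two-sided p = 0.1) and from 0.0169 ± 0.00209 to 0.179 ± 0.0611 in HSC3 (SD, n = 3). The spread of the HSC3 DOX ratios came mostly from replicate 1, at 0.249 against 0.140 and 0.148.

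**Figure D2:**
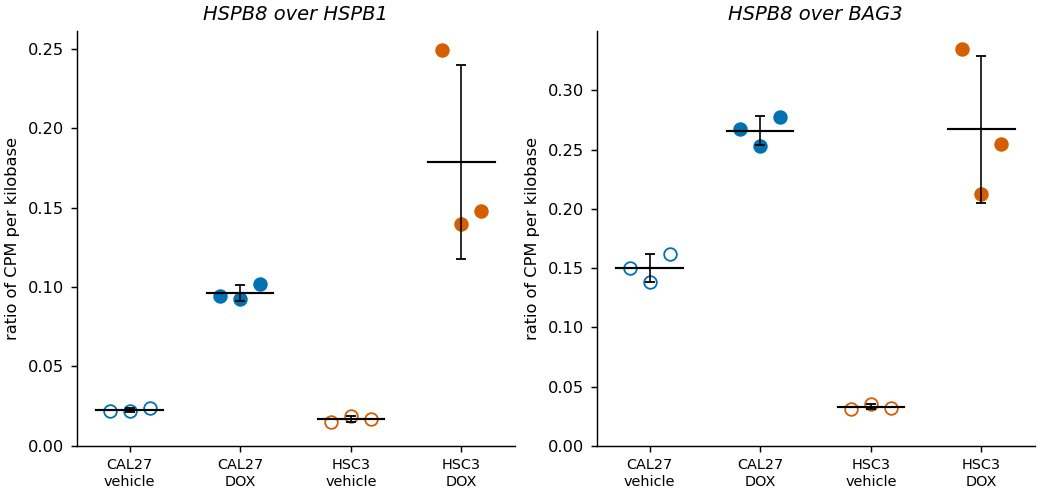
Ratio of HSPB8 to HSPB1 (left) and to BAG3 (right), from CPM per kilobase, with open points for vehicle libraries, filled points for DOX libraries, lines for the mean and error bars for the SD (n = 3). DOX libraries lie above vehicle libraries in both lines for both ratios, and the HSC3 DOX ratio to HSPB1 ranges from 0.140 to 0.249.

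HSPA8, on chromosome 11 from 123057489 to 123063230 on the minus strand, was the most abundant of the 10 genes per kilobase in every group. CAL27 levels were 1525, 1407 and 1433 CPM with vehicle and 1979.5, 1972 and 2089 CPM with DOX. HSPA8 rose in CAL27 (log2 fold change 0.47, SE 0.043, edgeR adjusted p = 2.0e-08), with no overlap between the groups. HSC3 levels were 2476, 2593 and 2391 CPM with vehicle and 3128, 3134 and 3122 CPM with DOX. These groups did not overlap either, and the log2 fold change was 0.33 (SE 0.056). Vehicle-treated HSC3 cells had more HSPA8 than CAL27 cells (log2 fold change 0.77, SE 0.049, edgeR adjusted p = 1.3e-09). Its 17 pseudogenes in the tables had at most 0.986% of its counts, and 11.4% of its exon bases overlap genes on the opposite strand.

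The stress-inducible HSPA1A and HSPA1B were at or near 0. They are neighbours on chromosome 6, from 31815543 to 31817946 and from 31827738 to 31830254, both on the plus strand. For HSPA1A, CAL27 vehicle libraries held 6, 1 and 5 counts and DOX libraries 4, 2 and 3. HSC3 libraries held none under vehicle and 0, 6 and 16 after DOX. For HSPA1B, CAL27 vehicle libraries held 2, 1 and 1 counts, DOX libraries 2, 0 and 3, and every HSC3 library 0. Of the 75-base stretches of the HSPA1A transcript, 73.8% occur in HSPA1B, and 70.2% of those of HSPA1B occur in HSPA1A. Of the exon bases of HSPA1B, 36.6% also overlap another gene on the same strand. How reads that match more than 1 place or gene were counted is not given in the sources used here. The low counts of this pair are therefore uncertain. Neither gene passed the filter, nor did the row made by adding both.

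DNAJB1 (HSP40), the J-domain partner of HSP70, lies on chromosome 19 from 14514769 to 14560391, on the minus strand. CAL27 levels were 207, 203 and 209 CPM with vehicle and 242, 228 and 230.4 CPM with DOX. The rise was small and clear of the replicate spread (log2 fold change 0.18, SE 0.037, edgeR adjusted p = 5.9e-04). HSC3 levels were 133.4, 133.1 and 133.6 CPM with vehicle and 168, 179.5 and 185 CPM with DOX. All DOX libraries lay above the vehicle libraries, with a log2 fold change of 0.41 ± 0.062 (SE), or 0.45 without DOX replicate 1. DNAJB1 was lower in vehicle-treated HSC3 than in CAL27 cells (log2 fold change -0.63, SE 0.048, edgeR adjusted p = 1.2e-08). Among HSPB1, BAG3, HSPA8, DNAJB1, HSPH1 and HSP90AA1, DNAJB1 followed HSPB8 most closely in log2 CPM over the 12 libraries (Pearson r = 0.890). Its r was at percentile 98.6 of the 9257 genes compared. As the libraries share 4 groups and include the HSC3 values used in the choice, this coefficient only describes the group levels.

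HSPH1, the HSP110 exchange factor, lies on chromosome 13 from 31134973 to 31162388, on the minus strand. CAL27 levels were 247, 242 and 261 CPM with vehicle and 351, 366 and 367 CPM with DOX. HSPH1 had the largest rise after HSPB8 among the 10 genes in CAL27 (log2 fold change 0.53, SE 0.040, edgeR adjusted p = 1.6e-09). HSC3 levels were 230.2, 232 and 227 CPM with vehicle and 269.9, 265 and 265 CPM with DOX. The groups did not overlap, with a log2 fold change of 0.21 ± 0.053 (SE), and the DOX effect was lower than in CAL27 by -0.32 on the log2 scale (SE 0.062).

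HSP90AA1 lies on chromosome 14 from 102080742 to 102139699, on the minus strand, and was second to HSPA8 in level per kilobase in every group. CAL27 levels were 1622, 1682 and 1729 CPM with vehicle and 2158, 2197 and 2018 CPM with DOX. HSP90AA1 rose in CAL27 (log2 fold change 0.34, SE 0.044, edgeR adjusted p = 2.9e-06). HSC3 levels were 1353, 1436 and 1461 CPM with vehicle and 1631, 1486 and 1411 CPM with DOX. The HSC3 groups overlapped, and the log2 fold change was 0.087 (SE 0.066), or 0.034 without DOX replicate 1, 0.057 without vehicle replicate 1 and 0.13 without DOX replicate 3. The DOX effect in HSC3 minus that in CAL27 was -0.25 for HSP90AA1 (SE 0.082), -0.14 for HSPA8 (SE 0.069) and 0.23 for DNAJB1 (SE 0.067) on the log2 scale. For BAG3 it was -0.12 (SE 0.13) and had no stable direction, at 0.025 without HSC3 DOX replicate 1 and -0.23 without HSC3 DOX replicate 2.

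Of the 10 genes, 8 passed the filter on low counts in CAL27, and 6 of these rose and 2 fell at an edgeR adjusted p under 0.05, where 22.6% of all genes tested rose and 21.8% fell. In these 8 the DOX libraries all lay above (6 genes) or all below (2 genes) the vehicle libraries, which held for 25.9% and 25.9% of all genes tested. With FC>2 as well, HSPB8 was upregulated (background 1.31%) and HSPB1 and CRYAB were downregulated (background 5.11%). In HSC3, 7 passed the filter, and in 4 of them (HSPB8, HSPA8, DNAJB1 and HSPH1) every DOX library lay above every vehicle library, which held for 20.2% of all genes tested. HSPB1, BAG3 and HSP90AA1 overlapped and none of the 7 lay wholly below (22.5% of all genes tested). Only HSPB8 of the 7 differed by over 2-fold in HSC3, where 1.58% of genes tested were upregulated and 4.4% downregulated at an edgeR adjusted p under 0.05 and FC>2. The HSC3 counts include the gene for which the set was chosen and are a description.

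**Figure D3:**
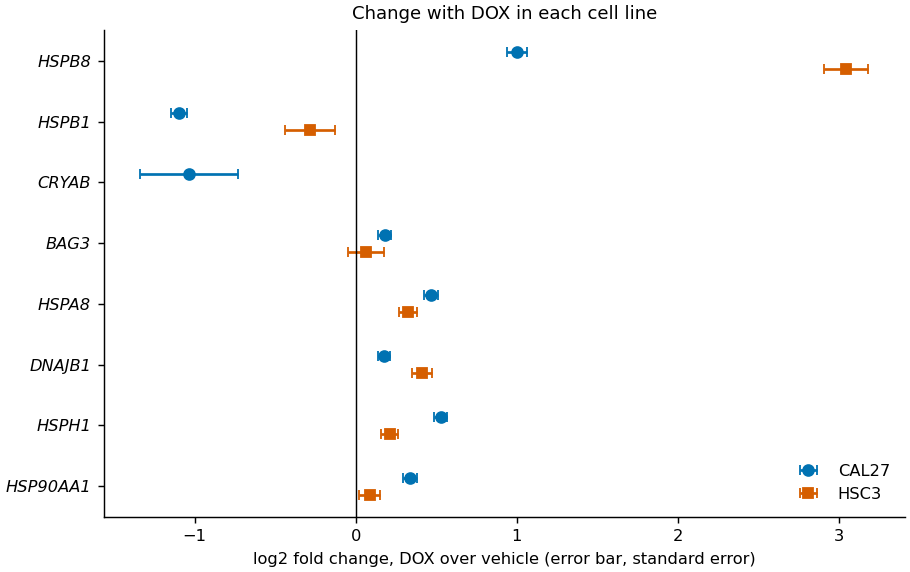
Log2 fold change with DOX of each gene that could be fitted, with its SE, in CAL27 and HSC3. HSPB8 lies at 1.00 in CAL27 and 3.04 in HSC3, HSPB1 at -1.10 and -0.29, and the other genes fitted in both lines lie between 0.062 and 0.53.

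Per kilobase, HSPA8 came first and HSP90AA1 second in all 4 groups. HSPB1 came next in CAL27 at 346 ± 22.7 CPM per kilobase with vehicle and 162 ± 11.5 with DOX (SD, n = 3), and also in vehicle-treated HSC3 at 83.3 ± 7.82 (SD, n = 3). In DOX-treated HSC3 the ranges of DNAJB1 and HSPB1, of HSPB1 and HSPH1, and of HSPH1 and BAG3 overlapped, so their order is not resolved. HSPB8 was seventh in every group, at 7.76 ± 0.589 CPM per kilobase under vehicle and 15.6 ± 0.764 after DOX in CAL27, and at 1.41 ± 0.210 and 11.6 ± 0.764 in HSC3 (SD, n = 3). Even after its increase it stayed below BAG3, at 58.7 ± 3.01 in CAL27 and 44.5 ± 7.09 in HSC3 with DOX. Levels of the 10 genes summed to 4005 ± 65.0 CPM under vehicle and 5038 ± 39.7 CPM after DOX in CAL27. In HSC3 they summed to 4443 ± 122 and 5270 ± 84.6 CPM (SD, n = 3). HSPA8 made up on average 36.3% under vehicle and 40.0% after DOX in CAL27, and 56.0% and 59.4% in HSC3. HSP90AA1 made up 41.9% and 42.2% in CAL27, and 31.9% and 28.6% in HSC3. The sums therefore mostly describe HSPA8 and HSP90AA1.

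Vehicle-treated lines were compared with each other in the fit of all 12 libraries, where cell line and anything else that differed between the 2 tables cannot be told apart. Of the 7 genes fitted other than HSPB8, 1 was higher in HSC3 (HSPA8) and 6 were lower, where 30.6% of all genes tested were higher and 32.3% lower. The median of all genes was itself shifted by -0.12 on the log2 scale, and by -0.39 with library totals as the scaling. With library totals HSPA8 was at 0.50, BAG3 at -0.55, HSPH1 at -0.39 and HSP90AA1 at -0.51. HSP90AA1 was lower by -0.24 (SE 0.058, edgeR adjusted p = 0.0018), BAG3 by -0.28 (SE 0.093, edgeR adjusted p = 0.016) and HSPH1 by -0.12 (SE 0.044, edgeR adjusted p = 0.024), which for HSPH1 is no more than the shift of all genes. CRYAB, at few counts, was at -2.04 (SE 0.78, edgeR adjusted p = 0.032), and its call was lost without any 1 of the CAL27 vehicle libraries or without HSC3 vehicle replicate 2 or 3 (edgeR adjusted p = 0.054 to 0.089). BAG3 lost its call without HSC3 vehicle replicate 3 (edgeR adjusted p = 0.064), and HSPH1 lost it without CAL27 vehicle replicate 3 (edgeR adjusted p = 0.10) and HSC3 vehicle replicate 3 (edgeR adjusted p = 0.053).

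A wider list of 93 chaperone and co-chaperone genes in 9 groups was counted in the same fits. In CAL27, 86 were tested, of which 43 rose and 18 fell (background 22.6% and 21.8%), with a median log2 fold change of 0.11 against -0.0052 for all genes. In HSC3, 84 were tested, and 14 rose and 18 fell at an edgeR adjusted p under 0.05 (background 13% and 15.4%), with a median of 0.059 against -0.0097 for all genes. The number that rose in HSC3 was 26 without DOX replicate 1, where the number among all genes also went up, from 2342 to 3268. No gene of the wider list was upregulated (edgeR adjusted p under 0.05 and FC>2) in either line. The background for this was low, at 1.31% of genes tested in CAL27 and 1.58% in HSC3. Downregulated genes were 2 in CAL27 (HSPA1L and SYNPO2) and 5 in HSC3, where the background was 5.11% and 4.4% of genes tested. The difference in DOX effect between the lines was tested for 86 genes of this list. At an edgeR adjusted p under 0.05, 7 were higher in HSC3, close to the background of 8.25%, and 21 were lower (background 12.3%).

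Among the chaperonins, the folding chambers of mitochondria and cytosol, 10 of 10 rose in CAL27 (background 22.6%) and 3 of 10 in HSC3 (background 13%). HSPD1 (HSP60) had a log2 fold change of 0.44 in CAL27 (edgeR adjusted p = 2.1e-08) and 0.43 in HSC3 (edgeR adjusted p = 4.1e-04). In the HSP70 family 4 of 12 rose and 4 fell in CAL27, and 1 rose and 5 fell of 11 tested in HSC3, against a background of 22.6% higher and 21.8% lower in CAL27 and 13% and 15.4% in HSC3. HSPA1L, at only 6 to 30 counts in a CAL27 library, fell by 1.65 on the log2 scale in CAL27 (SE 0.48, edgeR adjusted p = 0.0077) and was at 0.70 in HSC3 (SE 1.06, edgeR adjusted p = 0.69). HSPA2, HSPA12A and HSPA13 were downregulated by over 2-fold in HSC3, at -1.25, -1.27 and -1.23 on the log2 scale, and fell by less in CAL27, at -0.72, -0.40 and -0.48. The J-domain protein DNAJB6, a suppressor of aggregation, rose by 0.14 in CAL27 and 0.93 in HSC3, whereas the endoplasmic reticulum protein DNAJC10 fell by 0.37 and 1.18 on the log2 scale. A further group held 10 genes listed as partners of BAG3 and HSPB8 in selective autophagy, filamins and a transcription factor included. Of these, 3 rose and 6 fell in CAL27 (background 22.6% and 21.8%), and 1 rose and 2 fell in HSC3 (background 13% and 15.4%). The autophagy receptor SQSTM1 (p62) rose by 0.19 in CAL27 (edgeR adjusted p = 0.0028) and 0.68 in HSC3 (edgeR adjusted p = 0.00061). MAP1LC3B (LC3B), the autophagosome protein, fell by 0.88 and 1.33 on the log2 scale. SYNPO2, which binds BAG3, fell by 1.58 in CAL27 and was at 0.13 in HSC3 (SE 0.67, edgeR adjusted p = 0.91). HSF1 had log2 fold changes of 0.068 in CAL27 (edgeR adjusted p = 0.24) and 0.071 in HSC3 (edgeR adjusted p = 0.75).

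**Figure D4:**
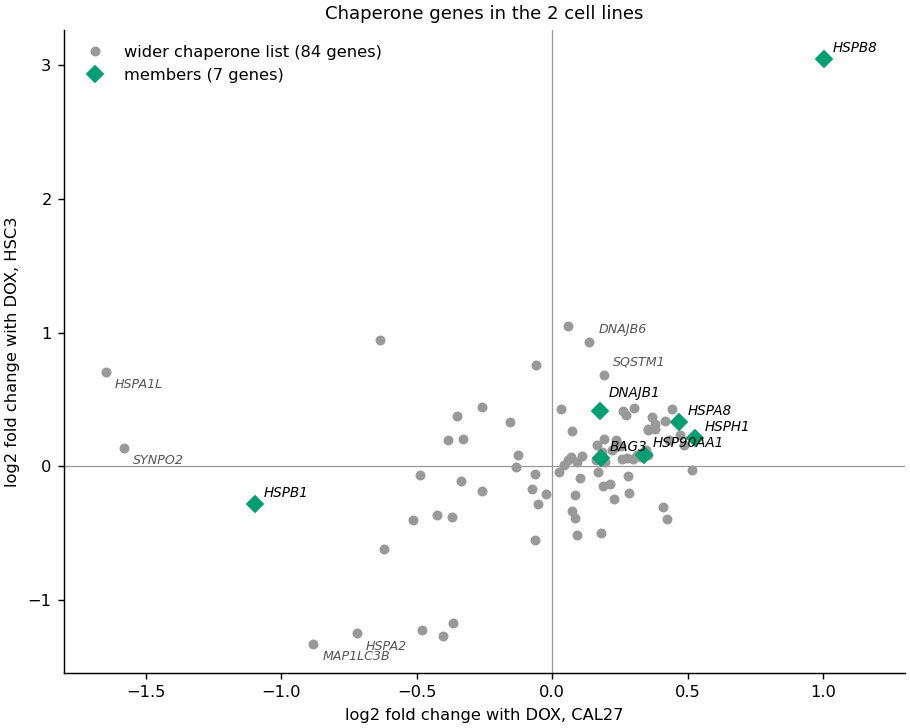
Log2 fold change with DOX in CAL27 (x axis) against HSC3 (y axis) for 84 genes of the wider list and 7 of the 10 genes described. HSPB8 lies apart at 1.00 and 3.04, and the genes of the wider list that fell furthest in HSC3 include HSPA2 and MAP1LC3B.

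The 5 genes whose log2 CPM was most like that of HSPB8 over the 12 libraries, among 9257 genes compared, were CCNYL1 (Pearson r = 0.987), MECOM (0.986), TNRC6B (0.986), CGN (0.985) and FAM120C (0.985). The libraries share 4 groups, so these coefficients describe the group levels. Log2 fold changes in CAL27 and HSC3 were 0.39 and 1.98 for CGN, which encodes the tight junction protein cingulin, and 0.42 and 0.90 for the transcription factor MECOM. Both changed less than HSPB8 in each line.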

How the data were processed

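RNA was extracted with TRIzol and made into TruSeq Stranded mRNA libraries. Per the submitters' processing notes, reads were checked with FastQC 0.11.9, aligned with STAR 2.7.9a to GRCh38 and counted with featureCounts of Subread 2.0.1. The annotation and the settings for strand and multiply mapped reads are not given in the sources used here. The authors deposited whole-number counts by gene symbol, not normalized, in 1 table for each line. CAL27 DOX columns are numbered 4 to 6 and the samples 1 to 3, so these columns carry only their group.

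Counts were analysed in R 4.3.3 with edgeR 4.0.16 (TMM, filterByExpr at a minimum count of 10 and minimum total of 15, robust glmQLFit, glmQLFTest), for each line alone, and in 1 fit of 12 libraries for differences between lines. Tests were two-sided, and p-values were adjusted by Benjamini-Hochberg across every gene tested. "Upregulated" and "downregulated" require an adjusted p under 0.05 and FC>2, except for HSC3 values of the 10 genes. The standard error is the log2 fold change divided by the square root of F. Lengths are those of MANE Select transcripts (GENCODE v44). The study used DESeq2, run here as an alternative (1.42.0). P-values measure the spread between triplicate cultures of 1 line.

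The genes and lists were chosen with earlier results of these data known. Genes named are the 10, MUC1, HSF1, genes of the wider list called in either line or among the 3 largest significant changes of their group in either line, and the 5 most correlated with HSPB8. Other marker lists summed to at most 0.458 CPM (immune), 0.135 to 15.3 CPM (endothelial) and 4.20 to 12.2 CPM (fibroblast). The endothelial sum in CAL27 was mostly CDH5, at a mean of 14.6 CPM with vehicle and 9.97 CPM with DOX. COL1A1 was the highest fibroblast marker in every group, at means of 4.59 to 8.40 CPM. On simulated counts with 200 genes changed by 1.5 on the log2 scale, 83.5% were recovered in CAL27 and 70.0% in HSC3. Recovery was lower for the difference in DOX effect between lines, at 57%, and between vehicle groups, at 62%. False calls were 15 of 182 in CAL27 and 6 of 146 in HSC3. For the other 2 comparisons they were 5 of 119 and 8 of 132. Most changes of the 10 genes were smaller than 1.5, and recovery of such changes was not simulated. Alternatives covered scaling, filter, tool, fold threshold, the samples fitted, counts per molecule and each library left out.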

Additional observations from a re-analysis of the deposited data

Results flagged for a closer look

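The difference in DOX effect between the lines is given as HSC3 minus CAL27 on the log2 scale. It passed edgeR's interaction test (adjusted p under 0.05) for 17 named genes of the wider list. These genes were named for their changes in the same libraries, so their number is a description. In the whole list, 7 of 86 genes tested were higher in HSC3 and 21 lower (background 8.25% and 12.3%). Among the named genes, the difference was positive for DNAJB6 (0.79), SQSTM1 (0.49), HSBP1 (0.49) and TSC1 (0.42). It was negative for the HSP70 relatives HSPA12A (-0.86), HSPA13 (-0.75) and HSPA2 (-0.53), for the J-domain proteins DNAJC9 (-0.82), DNAJC10 (-0.81) and DNAJC1 (-0.54), and for the co-chaperones FKBP5 (-0.68) and BAG4 (-0.48). It was also negative for HSPB11 (-0.47), MAP1LC3B (-0.44) and the chaperonin subunits CCT2 (-0.33), CCT6A (-0.24) and TCP1 (-0.23). DNAJC9 rose in CAL27 (0.42) and fell in HSC3 (-0.39), as did FKBP5 (0.18 and -0.50).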

How the results depend on the processing

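For the 10 genes, the direction of each log2 fold change fitted held under the alternatives tried, except for BAG3. Its log2 fold change in HSC3 was -0.049 without DOX replicate 2, and its difference between the lines was 0.025 without HSC3 DOX replicate 1. In CAL27, the number of the 10 genes upregulated by FC>2 was 0 with library totals and with counts per molecule, 6 with no fold threshold, and 0 to 1 with each library left out (HSPB8 lies at the threshold). The number downregulated was 1 to 2 with each library left out and 1 in 1 fit over 12 libraries, where the number that fell was also 1. That fit gave 2746 genes that rose, 2337 that fell and 568 downregulated in CAL27, against 4351, 4203 and 984. FC>1.5 gave 714 upregulated and 1848 downregulated genes in CAL27, against 252 and 984, and 798 and 1514 in HSC3, against 284 and 793. With no fold threshold these were 4351 and 4203, and 2342 and 2782. In HSC3, 1 fit over 12 libraries gave 545 and 1237. Of the 10 genes, 2 were higher by the fold threshold in HSC3 with no filter and 6 with no fold threshold, and 1 was lower with no filter, with no fold threshold and in 1 fit over 12 libraries, and 0 to 1 with each library left out. Leaving out each HSC3 library, the wider list had 7 to 26 genes that rose and all genes 1514 to 3268, the highest without DOX replicate 1. Leaving out each library, the interaction had 1336 to 2614 genes higher in HSC3. Between vehicle groups, HSPB8 was at -2.74 with library totals and -2.60 to -2.41 with each library left out, and 3 to 6 of the 10 genes were lower in HSC3.

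In HSC3 the replicate number did not pair the samples (correlations -0.045, 0.050 and -0.027). With the replicate block, the log2 fold change of HSPB8 was 3.05 and 13 genes of the wider list rose and 15 fell. No paired analysis was possible in CAL27 because the DOX columns carry no replicate number of the samples. The sum of HSPA1A and HSPA1B gave no value, as it did not pass the filter.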
